A study of Mus musculus with 11 samples.

Results

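The 10 genes described here are Rgs2 and 9 immediate early genes: Fos, Fosb, Jun, Junb, Jund, Egr1, Myc, Ier2 and Ier3. They were taken by name, and all 13 probe sets annotated to exactly 1 of them were used, out of 12422 probe sets that are not controls and 8251 genes with a probe set. Fos, Junb and Egr1 have 2 probe sets each and the other 7 genes have 1. The measurements come from 3T3-L1 cells, a mouse fibroblast line derived from a single clone and widely used as a model of fat cell formation; whether the cells had been differentiated is not stated in the labels. Total RNA was hybridised to 11 one-colour oligonucleotide arrays, 1 per sample. After 24 h of treatment, 3 arrays represent the vehicle (0.1% DMSO), 2 arrays pioglitazone at 20 µM, 3 arrays rosiglitazone at 1 µM and 3 arrays troglitazone at 20 µM. The labels do not give the solvent of the drugs. Set 1 holds replicates 1 and 2 of every group, and replicate 4 of every group but pioglitazone makes up set 2, so the pioglitazone arrays all lie in set 1. The labels do not say whether the replicates were separate cultures, and the p-values therefore measure only the spread between these samples, which may be technical.

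Immediate early genes are transcribed within minutes of a growth factor, hormone or stress signal, without new protein synthesis, through MAP kinases and transcription factors such as SRF, the ternary complex factors and CREB, and most fall back soon afterwards. Many encode transcription factors: FOS and JUN proteins pair to form AP-1, EGR1 is a zinc finger factor, and MYC binds E-boxes with MAX. RGS2 is a cytoplasmic regulator of G protein signalling that speeds GTP hydrolysis by alpha subunits, those of the Gq class above all; its gene is also induced quickly by serum and cyclic AMP, and it has been studied in early adipocyte differentiation. Pioglitazone, rosiglitazone and troglitazone are insulin-sensitising thiazolidinediones that bind and activate PPARγ, a nuclear receptor of adipocytes. In structure troglitazone differs from the other two by a vitamin E-like chroman ring in place of a pyridine ring.

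Promoter sequence was read for the genes on which the comparisons below turn, to look for known elements in the bases just before the start. Among the entries read from RefSeq's promoter table (build GRCm38.p6), 7 of the 10 genes were found, without Egr1, Myc and Ier2. The reading left out a chromosome, so the table itself may hold an entry for a gene of that chromosome. The 250 bases before the annotated start are printed 5′ to 3′ on the gene's strand for Rgs2 (chr1:144004150-144004399, minus strand), Ier3 (chr17:35821463-35821712, plus strand) and, as the best known member of the class, Fos (chr12:85473640-85473889, plus strand). Capitals mark matches, on either strand, to the motifs named after the sequences.
Rgs2: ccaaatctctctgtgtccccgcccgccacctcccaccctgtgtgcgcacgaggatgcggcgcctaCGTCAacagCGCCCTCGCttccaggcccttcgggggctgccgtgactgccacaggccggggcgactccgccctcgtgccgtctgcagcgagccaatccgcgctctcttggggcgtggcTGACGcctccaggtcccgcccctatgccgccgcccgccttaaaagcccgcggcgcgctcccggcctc
Ier3: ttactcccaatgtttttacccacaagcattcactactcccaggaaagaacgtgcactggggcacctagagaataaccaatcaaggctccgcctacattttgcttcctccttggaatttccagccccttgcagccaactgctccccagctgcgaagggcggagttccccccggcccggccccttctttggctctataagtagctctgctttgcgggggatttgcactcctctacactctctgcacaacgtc
Fos: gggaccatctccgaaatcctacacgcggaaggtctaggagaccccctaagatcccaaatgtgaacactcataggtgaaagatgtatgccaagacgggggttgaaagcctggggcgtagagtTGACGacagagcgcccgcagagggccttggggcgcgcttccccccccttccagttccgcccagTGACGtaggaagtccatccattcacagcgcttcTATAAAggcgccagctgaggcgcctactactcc
The motifs searched were the cyclic AMP response element TGACGTCA and its core TGACG, the AP-1 site TGANTCA, the E-box CACGTG, the EGR site GCGNGGGCG, the TATA box TATAAA and the SRF-binding CArG box. The core lies within the full element. In Rgs2 the core began 185 and 67 bases before the start and an EGR site 176 bases before it. In Fos the core began 129 and 66 bases before the start and a TATA box 33 bases before it. No searched motif was found in these 250 bases of Ier3. Among 32851 promoter windows of the same length, 17.8% held the core, 4.7% the EGR site, 12.4% the TATA box, 1.55% the full cyclic AMP element, 6.75% the AP-1 site, 6.02% the E-box and 1.47% the CArG box. These matches describe the letters only. Bases outside this window were not searched, so a motif without a match here may lie further away.

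The deposited signal intensities were already scaled, so that the mean signal after trimming 2% at each end was 500.289 to 500.433 on every array. Median signal was 162.8 to 243.5. Values under a floor of 73.7 were raised to it before logarithms were taken, and a change is the log2 difference from limma with a term for the set; "rose" and "fell" mean an adjusted p under 0.05 over 11739 tested probe sets. The 3' to 5' signal ratio of the beta-actin controls, a sign of RNA quality, was 4.86 on pioglitazone replicate 2, 3.74 to 3.90 on the set 2 arrays and 1.79 to 2.27 on the other set 1 arrays. Rosiglitazone replicate 2 correlated least with the other arrays (median 0.833). All 11 tested mature adipocyte markers lay above the floor on at least 1 array of every group (summed signal 107767 to 134089 on the vehicle arrays). With vehicle, all but 1 of 10 macrophage, 1 of 8 endothelial and 1 of 9 skeletal muscle markers also met that criterion. It therefore does not tell cell types apart. The summed signal of 13 tested preadipocyte and fibroblast markers was 12024 to 12938 with vehicle, 6958 to 7706 with pioglitazone, 8430 to 9840 with rosiglitazone and 6280 to 8693 with troglitazone.

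Rgs2 was the only member that passed the test. It fell with pioglitazone and in the mean of the 3 drugs, and its signal on each of the 8 treated arrays was below that on each of the 3 vehicle arrays. Rgs2 (97844_at) had a signal of 1860.3, 2132.9 and 2048.0 on vehicle replicates 1, 2 and 4, a mean of 2014 ± 139 (SD, n = 3). Pioglitazone replicates 1 and 2 gave 176.2 and 797.2, a mean of 486.7 ± 439 (SD, n = 2). The vehicle arrays lay close together, whereas the pioglitazone arrays were far apart, with replicate 1 the lowest of all 11. Rosiglitazone replicates 1, 2 and 4 gave 525.7, 1115.9 and 1108.8, a mean of 916.8 ± 339 (SD, n = 3). Troglitazone replicates 1, 2 and 4 gave 784.2, 476.4 and 930.2, a mean of 730.3 ± 232 (SD, n = 3). The order of the mean levels was vehicle, rosiglitazone, troglitazone, pioglitazone; the ranges of the 3 drug groups overlapped one another. Of all 11739 probe sets, 228 (1.94%) likewise had every treated array below every vehicle array.

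Against vehicle, the log2 change of Rgs2 with pioglitazone was -2.29 ± 0.51 (SE; 95% interval -3.37 to -1.21), a 4.90-fold lower level (limma, adjusted p = 0.0465). With rosiglitazone it was -1.21 ± 0.44 (adjusted p = 0.288) and with troglitazone -1.52 ± 0.44 (adjusted p = 0.155), neither of which passed. The mean of the 3 drugs was -1.67 ± 0.37, a 3.19-fold lower level (limma, adjusted p = 0.0235). These 4 comparisons share the vehicle arrays and so are not independent of each other. Among the 13 member probe sets, 1 was called with pioglitazone (0.903% of all probe sets), 0 with rosiglitazone (1.35%), 0 with troglitazone (1.33%) and 1 in the mean of the drugs (2.14%). At an unadjusted p under 0.05 the limma counts were 4, 2, 3 and 3 of 13 in that order, beside 1156, 1234, 977 and 1230 of all probe sets. The pioglitazone call of Rgs2 lies close to the threshold and ended when any 1 of 10 of the 11 arrays was left out, all but pioglitazone replicate 2 (limma, adjusted p = 0.0634 to 0.387). Without pioglitazone replicate 1 the change was -1.20, and without replicate 2 it was -3.38. The call in the mean of the drugs ended without any 1 vehicle array, rosiglitazone replicate 1 or 4, or troglitazone replicate 1 or 4 (limma, adjusted p = 0.0522 to 0.222). Without pioglitazone replicate 1 or 2, the troglitazone change passed (limma, adjusted p = 0.0295 and 0.0344).

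**Figure D1:**
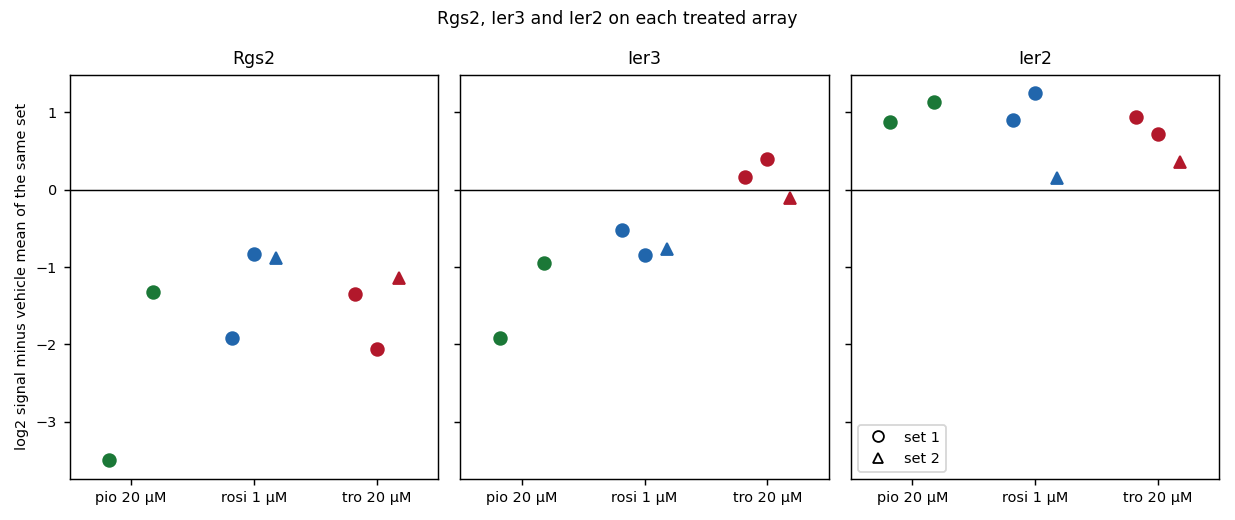
Log2 signal of Rgs2, Ier3 and Ier2 on each of the 8 treated arrays minus the mean log2 vehicle signal of the same set (y axis), by drug and dose (x axis); circles are set 1 arrays and triangles set 2 arrays, with no averaging over treated arrays. Every Rgs2 point lies below 0 (-3.50 to -0.84) and every Ier2 point above it (0.15 to 1.25), while Ier3 lies below 0 with pioglitazone and rosiglitazone and on both sides of it with troglitazone.

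Both sets placed Rgs2 below vehicle. Relative to the vehicle mean of the same set, the 2 pioglitazone arrays differed by -3.50 and -1.32 (log2), rosiglitazone replicates 1, 2 and 4 by -1.92, -0.84 and -0.89, and troglitazone replicates 1, 2 and 4 by -1.34, -2.06 and -1.14. Within set 1 the change was -2.41 with pioglitazone, -1.38 with rosiglitazone and -1.70 with troglitazone. In set 2, with 1 array a group, it was -0.89 with rosiglitazone and -1.14 with troglitazone. The set 2 minus set 1 difference was 0.49 ± 1.13 for rosiglitazone and 0.57 ± 1.13 for troglitazone (limma, adjusted p = 1 for both).

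The vehicle range of the preadipocyte and fibroblast marker sum did not overlap that of any drug group either, and it was lower in each of them, as Rgs2 was. Of its 13 tested genes, 1 fell with pioglitazone (Fn1), 1 with rosiglitazone (Fn1), 2 with troglitazone (Fn1 and Col1a1) and 3 in the mean of the drugs (Fn1, Col1a1 and S100a4); Fn1 encodes fibronectin and Col1a1 a collagen chain. Leaving out each of the 11 arrays in turn ended the Fn1 call 8, 5 and 4 times with pioglitazone, rosiglitazone and troglitazone and 0 times in the mean of the drugs. It ended the Col1a1 call 5 times with troglitazone and 3 times in the mean, and the S100a4 call 8 times. The vehicle ranges of the summed adipocyte, macrophage, endothelial and skeletal muscle markers overlapped those of every drug group, but single markers were called. Of 11 tested adipocyte markers, 2 rose and 1 fell with pioglitazone, 2 rose and 2 fell with rosiglitazone, and 1 rose and 2 fell with troglitazone. Pparg, the receptor of the drugs, fell with each, by 1.93, 1.43 and 1.89 on the log2 scale with pioglitazone, rosiglitazone and troglitazone (limma, adjusted p = 0.000901, 0.00204 and 0.000133). Retn, which encodes resistin, fell with rosiglitazone and troglitazone, Cidec rose with each drug, and Pck1 rose with pioglitazone and rosiglitazone. The macrophage list had 0 of 10 called with pioglitazone and rosiglitazone and 1, Cd14, which fell, with troglitazone and in the mean of the drugs; no endothelial or muscle marker was called against vehicle. Leaving out each array in turn ended the Cd14 calls 6 and 10 times in that order, the Retn call with rosiglitazone 8 times, the Pck1 call with rosiglitazone 2 times and none of the other adipocyte marker calls against vehicle. The part of any of these markers in the Rgs2 result was not tested, and fewer cells of a type cannot be told apart from less RNA per cell in such bulk samples. With the beta-actin 3' to 5' ratio as a covariate the Rgs2 change with pioglitazone was -3.07 (limma, adjusted p = 0.00178). Within set 1 that ratio stood apart only on pioglitazone replicate 2 (4.86, against 1.79 to 2.27 on the other arrays). The fit therefore cannot tell RNA quality apart from that array, and leaving the array out gave -3.38. Of the 13 alternatives that are not single left-out arrays, 8 ended the pioglitazone call of Rgs2, with adjusted p from 0.00178 to 0.585 over the 13.

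The genes most like Rgs2 over the 11 arrays were named by the root mean square difference of log2 signals centred on each set's mean, among 4426 genes above the floor on every array. They were Tpp2, a peptidase (0.394), N4bp1 (0.434) and Golga3, a Golgi protein (0.472); the root mean square of Rgs2 about its own set means was 0.958. Tpp2 signal was 1214 ± 300 with vehicle (SD, n = 3), 336.6 ± 214 with pioglitazone (SD, n = 2), 675.3 ± 163 with rosiglitazone and 389.7 ± 64.0 with troglitazone (SD, n = 3 each). Tpp2 has 2 tested probe sets, of which only the brighter on average was used. As it was picked for likeness to Rgs2 on these same arrays, its lower signal with the drugs is not a separate result.

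Ier3 and Ier2 are named for the immediate early response; IER3 is a stress-inducible protein that modulates ERK signalling and cell survival, and IER2 is a nuclear protein. Ier3 was low with pioglitazone and rosiglitazone but not with troglitazone, and Ier2 was above vehicle with all 3 drugs; no change of either passed. Ier3 (94384_at) had a signal of 401.6, 677.6 and 561.6 on vehicle replicates 1, 2 and 4. It was 137.6 and 271.5 on pioglitazone replicates 1 and 2. On rosiglitazone replicates 1, 2 and 4 it was 363.2, 291.9 and 331.4. Both pioglitazone arrays and all 3 rosiglitazone arrays lay below every vehicle array, as for 10.3% and 6.01% of all probe sets in that order. On troglitazone replicates 1, 2 and 4 the signal was 582.8, 685.9 and 523.0, overlapping vehicle and above both pioglitazone arrays. The log2 change of Ier3 was -1.48 ± 0.45 with pioglitazone (limma, adjusted p = 0.180), -0.71 ± 0.39 with rosiglitazone (adjusted p = 0.570) and 0.15 ± 0.39 with troglitazone (adjusted p = 0.985). Within set 1 these were -1.43, -0.68 and 0.28, and in set 2 they were -0.76 with rosiglitazone and -0.10 with troglitazone.

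Ier2 (99109_at) gave 271.8, 643.6 and 592.9 on vehicle replicates 1, 2 and 4, and 763.9 and 917.8 on pioglitazone replicates 1 and 2. On rosiglitazone replicates 1, 2 and 4 it gave 780.4, 995.7 and 657.9, and on troglitazone replicates 1, 2 and 4 it gave 803.7, 687.8 and 757.8. All 8 treated arrays lay above all 3 vehicle arrays, as they did for 152 of all probe sets (1.29%). The vehicle arrays of set 1 themselves differed by 1.24 (log2), more than the change with any drug. The log2 change was 0.85 ± 0.38 with pioglitazone, 0.77 ± 0.33 with rosiglitazone and 0.67 ± 0.33 with troglitazone. In the mean of the drugs it was 0.76 ± 0.27 (limma, adjusted p = 0.262). Vehicle replicate 1 was the low vehicle array: without it the log2 changes were 0.35, 0.34 and 0.25 with pioglitazone, rosiglitazone and troglitazone and 0.31 in the mean of the drugs. In set 2 the treated arrays stood closer to vehicle, by 0.15 with rosiglitazone and 0.35 with troglitazone.

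**Figure D2:**
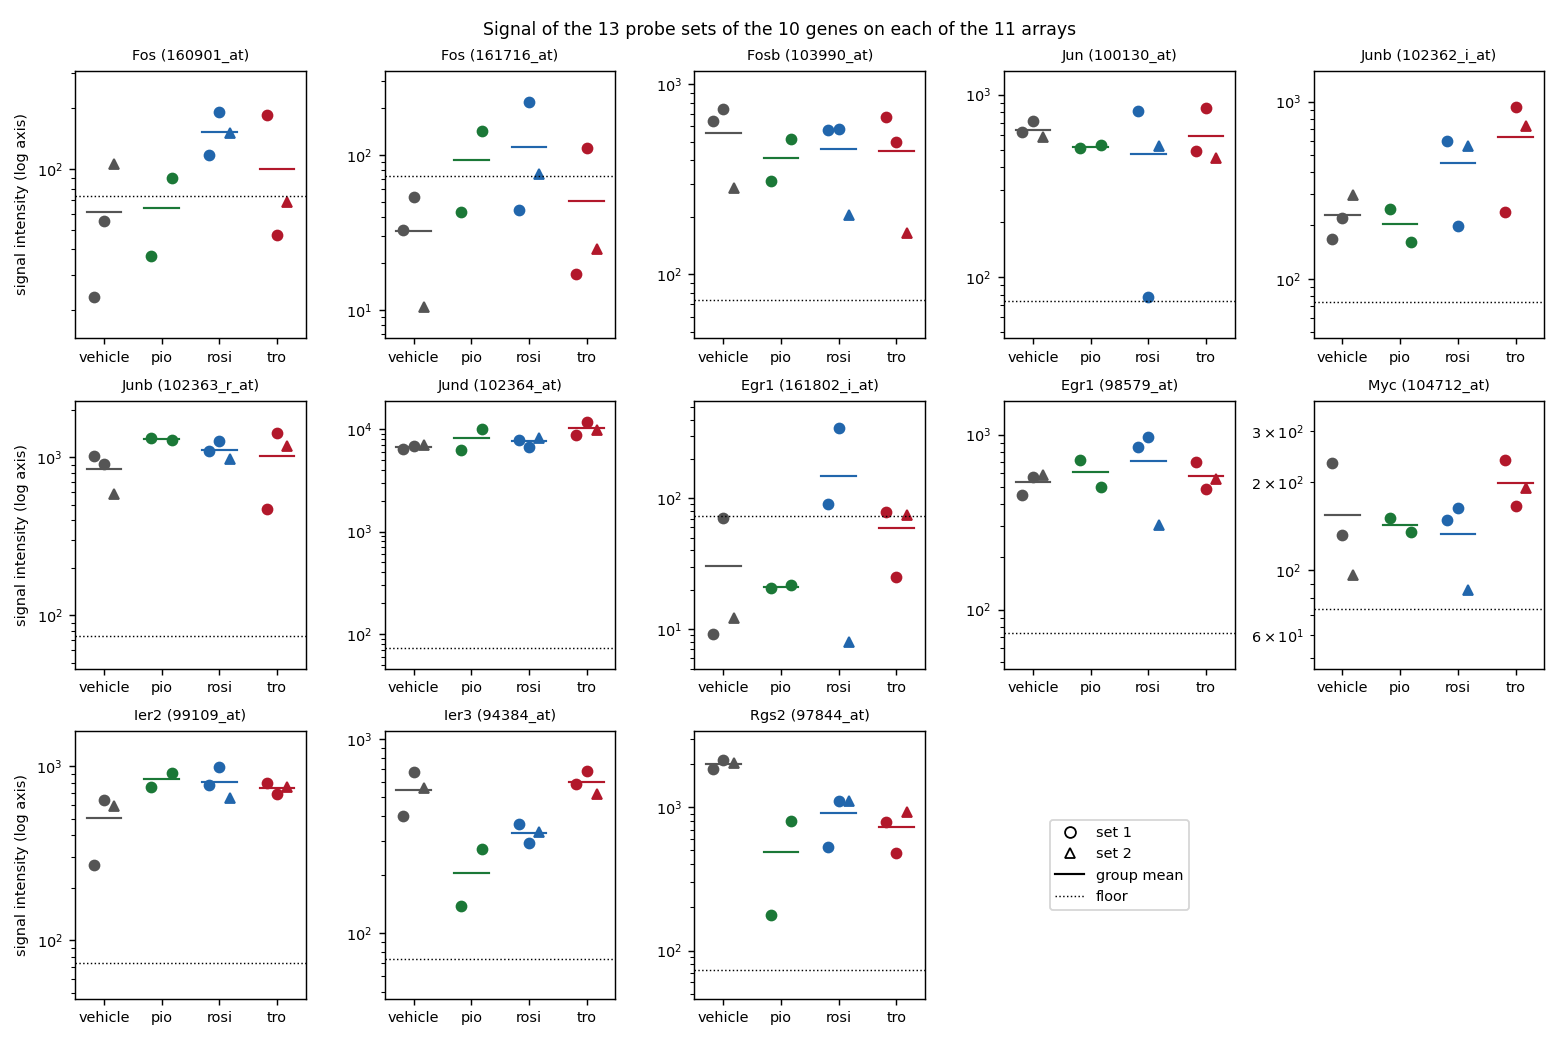
Deposited signal intensity (y axis, log scale) of the 13 probe sets on the 11 arrays, grouped by treatment (x axis; pioglitazone 20 µM, rosiglitazone 1 µM, troglitazone 20 µM); circles are set 1 arrays, triangles set 2 arrays, bars the group means of 2 or 3 arrays, and the dotted line the floor of 73.7. Rgs2 on the 8 treated arrays (176.2 to 1115.9) lies below the vehicle arrays (1860.3 to 2132.9).

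In the Jun family, the partners that FOS proteins need to form AP-1, no member passed in any comparison. Jund, the family's growth-restraining and most steadily expressed member, was highest with troglitazone. Jund (102364_at) had a signal of 6351.4, 6796.1 and 7020.3 on vehicle replicates 1, 2 and 4 and of 8810.9, 11760.2 and 9846.5 on the same troglitazone replicates. All 3 troglitazone arrays lay above all vehicle arrays, as for 4.77% of all probe sets. The log2 change was 0.58 ± 0.17 (95% interval 0.22 to 0.94), which did not pass (limma, adjusted p = 0.156), and it was 0.63 in set 1 and 0.49 in set 2. With pioglitazone (6233.4 and 10009.6 on replicates 1 and 2) and rosiglitazone (6694.6 to 8239.7) the ranges overlapped vehicle.

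Junb, often an antagonist of JUN in AP-1, gave different pictures with its 2 probe sets. On 102362_i_at it had 167.0, 219.9 and 295.9 on vehicle replicates 1, 2 and 4 and 239.0, 934.9 and 730.6 on the same troglitazone replicates. On 102363_r_at it had 1017.8, 913.3 and 588.2 with vehicle and 468.2, 1423.1 and 1183.2 with troglitazone, in the same order. Troglitazone replicate 1 was the lowest troglitazone array in both, and the groups overlapped in both. The log2 change with troglitazone was 1.30 ± 0.55 for 102362_i_at (limma, adjusted p = 0.510) and 0.18 ± 0.35 for 102363_r_at (adjusted p = 0.973). With pioglitazone the order was the other way round, 0.07 ± 0.63 for 102362_i_at and 0.62 ± 0.40 for 102363_r_at. On the latter both pioglitazone arrays (1317.2 and 1284.4) lay above all vehicle arrays, as for 9.07% of all probe sets.

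Jun (100130_at) encodes the founding AP-1 subunit. It had 621.7, 718.3 and 588.9 on vehicle replicates 1, 2 and 4 and 814.0, 77.7 and 524.9 on the same rosiglitazone replicates. Rosiglitazone replicate 2 was thus close to the floor while replicate 1 exceeded every vehicle array. The log2 change with rosiglitazone, -0.995 ± 0.63 (limma, adjusted p = 0.631), rested on that array and was 0.10 without it. Pioglitazone gave 507.7 and 530.4, both below all vehicle arrays, as for 10.3% of all probe sets, with a log2 change of -0.26 ± 0.73. Troglitazone gave 488.7, 846.7 and 447.6 and a log2 change of -0.17 ± 0.63.

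The Fos family supplies the other partner of AP-1. Fosb (103990_at) had 642.5, 737.4 and 284.0 on vehicle replicates 1, 2 and 4, 308.9 and 514.9 with pioglitazone, 575.3, 584.8 and 206.3 with rosiglitazone, and 675.3, 494.1 and 165.0 with troglitazone. The set 2 array was the lowest in every group that had one, and each drug group overlapped vehicle. Against the vehicle mean of its own set, Fosb was lower on 8 of 8 treated arrays, by as little as 0.03 and as much as 1.16 on the log2 scale. The share of all probe sets for which this was so was not counted, and the 8 values rest on the same 3 vehicle arrays. The log2 changes were -0.87 ± 0.40 with pioglitazone (limma, adjusted p = 0.495), -0.32 ± 0.35 with rosiglitazone and -0.43 ± 0.35 with troglitazone. None passed.

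Fos signal was near or under the floor. On 160901_at it was 23.2, 55.5 and 106.2 on vehicle replicates 1, 2 and 4, 37.1 and 90.7 with pioglitazone, 117.5, 192.1 and 150.4 with rosiglitazone, and 185.8, 47.0 and 68.7 with troglitazone. The 3 rosiglitazone arrays were all above the floor and above every vehicle array, whereas 1 of 3 vehicle arrays was above the floor. Of all probe sets, 4.78% had every rosiglitazone array above every vehicle array. On 161716_at no vehicle array was above the floor, and 1 of 2 pioglitazone, 2 of 3 rosiglitazone and 1 of 3 troglitazone arrays were. The log2 change on 160901_at with rosiglitazone, on floored values, was 0.85 ± 0.42 (limma, adjusted p = 0.505), and no change of either probe set passed.

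Egr1 (98579_at) had 452.5, 572.0 and 591.1 on vehicle replicates 1, 2 and 4, 718.8 and 499.6 with pioglitazone, 847.8, 975.5 and 306.2 with rosiglitazone, and 694.3, 488.5 and 559.8 with troglitazone. The rosiglitazone arrays included the highest 2 and the lowest of all 11. By set, the log2 change with rosiglitazone was 0.84 in set 1 and -0.95 in set 2, a difference of -1.79 ± 0.62 (limma, unadjusted p = 0.0184, adjusted p = 1). The second Egr1 probe set, 161802_i_at, was under the floor of 73.7 on all vehicle (at most 70.4) and both pioglitazone arrays. It was above the floor on 2 of 3 rosiglitazone arrays, with 90.3 on replicate 1 and a highest signal of 348.8 on replicate 2. The 2 of 3 troglitazone arrays above the floor were barely so, with 79 on replicate 1 and 74.9 on replicate 4. Myc (104712_at) had 233.2, 132.3 and 96.6 on vehicle replicates 1, 2 and 4, a spread wide enough to overlap every drug group. It had 150.9 and 135.5 with pioglitazone, 148.5, 163.5 and 85.5 with rosiglitazone, and 237.3, 166.3 and 191.6 with troglitazone. The log2 changes of Myc were -0.21 ± 0.60, -0.17 ± 0.52 and 0.45 ± 0.52 with the 3 drugs in that order.

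**Figure D3:**
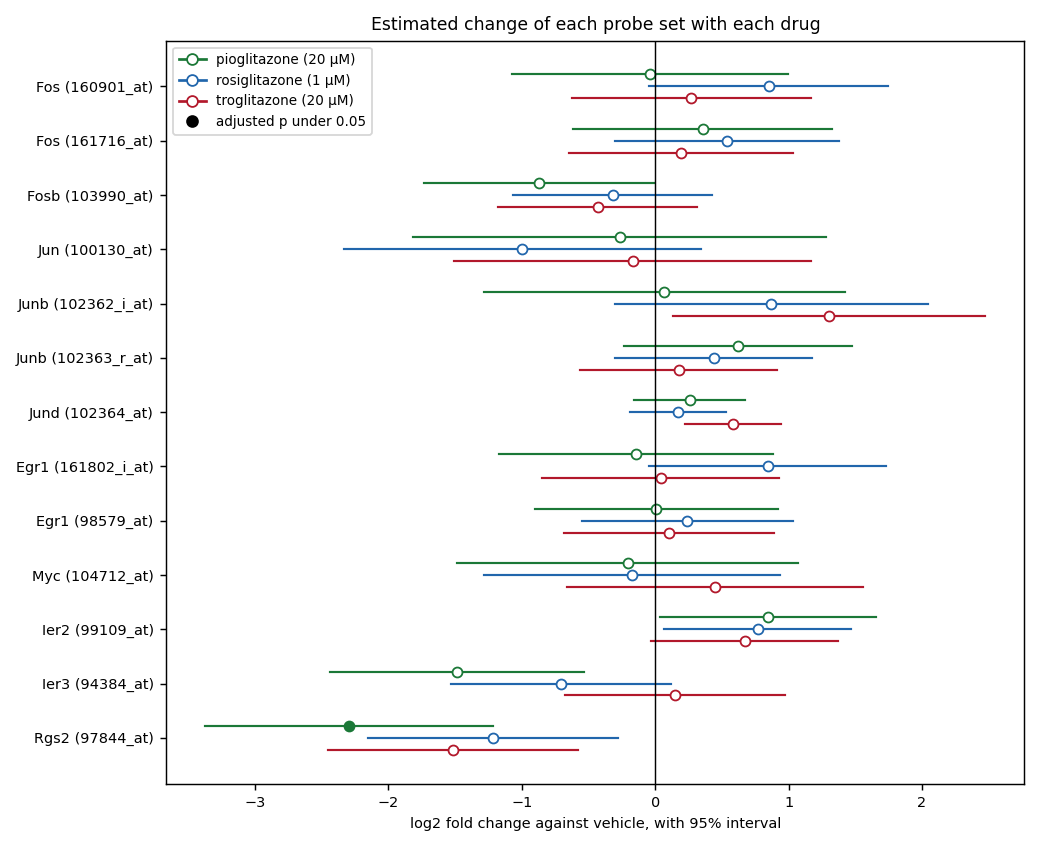
Estimated log2 change against vehicle (x axis, with 95% intervals from limma) of each of the 13 probe sets (y axis) with 20 µM pioglitazone, 1 µM rosiglitazone and 20 µM troglitazone; a filled point has an adjusted p under 0.05. The filled point is Rgs2 with pioglitazone (-2.29); the widest intervals belong to Jun.

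Counted over the 13 probe sets, the ranges of pioglitazone and vehicle did not overlap for 2 that were higher (9.07% of all probe sets) and 3 that were lower (10.3%). For rosiglitazone it was 2 higher (4.78%) and 2 lower (6.01%), and for troglitazone 2 higher (4.77%) and 1 lower (6.07%). Rgs2 and Ier2 were the members in all 3 counts. The median log2 change over the 10 genes was -0.12 with pioglitazone (-0.08 over all 7962 genes), -0.00063 with rosiglitazone (-0.01) and 0.16 with troglitazone (-0.03). The highest array was rosiglitazone replicate 2 for 5 of the 13 probe sets (both of Fos, both of Egr1, and Ier2) and troglitazone replicate 2 for 5 others (Jun, both of Junb, Jund and Ier3). How often each array was the highest over all probe sets was not counted, so these counts cannot be read as a trait of these genes. Rosiglitazone replicate 2 also had the highest median signal of all arrays (243.5).

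Pioglitazone and troglitazone, the 1 pair of drugs given at the same dose and time, differed in no member (0 of 13, beside 0.0341% of all probe sets; 1 of 13 at an unadjusted p under 0.05 by limma, 745 of all). With 1 pair there was no adjustment over pairs. Ier3 had the widest difference, 1.63 ± 0.45 (log2, troglitazone minus pioglitazone; 95% interval 0.68 to 2.59), with all 3 troglitazone arrays above both pioglitazone arrays, and it did not pass (limma, adjusted p = 0.358; 0.137 to 0.996 on leaving out an array, and 1.14 without pioglitazone replicate 1). On values raised to the floor, Myc was the other member whose troglitazone arrays all lay above the pioglitazone arrays, which was so for 7.23% of all probe sets; for 0 members they all lay below (9.02% of all). Rgs2 differed by 0.78 ± 0.51, with an interval from -0.30 to 1.86 that includes both no difference and a level several-fold higher with troglitazone. For Ier2 the interval was -0.98 to 0.63 and for Jund -0.09 to 0.74. The 13 intervals reached from 0.42 to 1.55 either side of the estimate, so missing the threshold does not show that the compounds act alike. Rosiglitazone was given at 1 µM, and as the doses differ its values stand beside the others and were not tested against them.

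**Figure D4:**
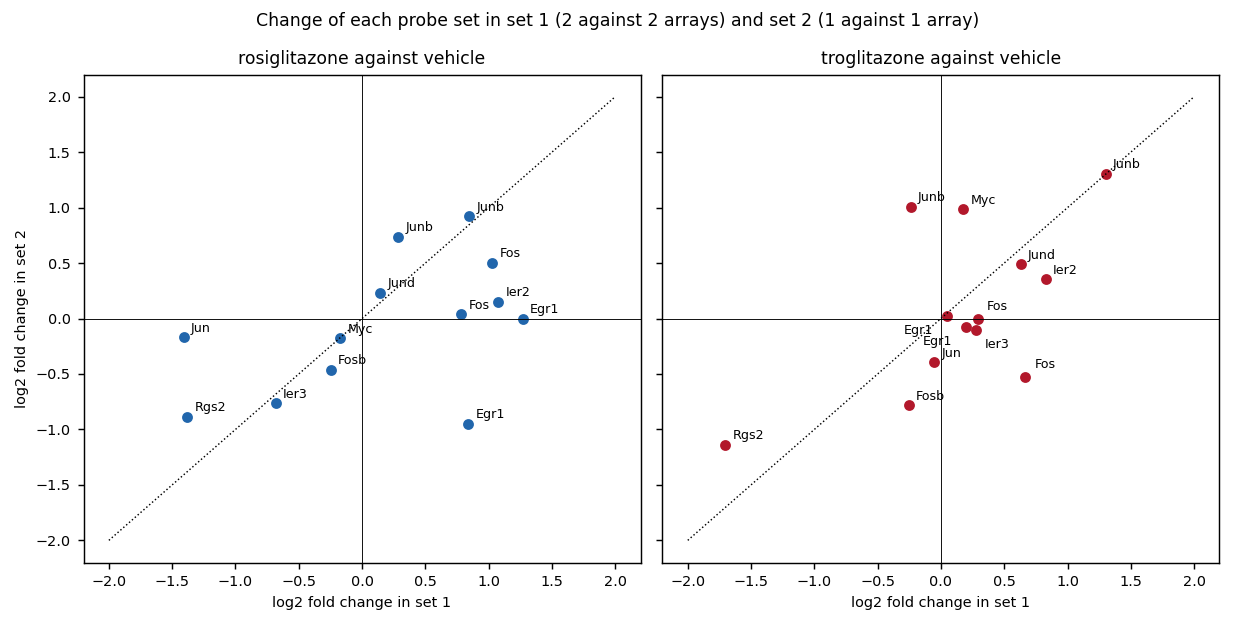
Log2 change against vehicle in set 1 (x axis, 2 against 2 arrays) and in set 2 (y axis, 1 against 1 array) of the 13 probe sets with rosiglitazone (left) and troglitazone (right); the dotted line marks equal changes, and genes with 2 probe sets appear under the same name. Rgs2 lies lower left in both panels (-1.38 and -0.89 with rosiglitazone, -1.70 and -1.14 with troglitazone), while Egr1 with rosiglitazone is positive in set 1 and negative in set 2.

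The difference between sets passed for no member with either drug (0 of 13, and 0% of all probe sets, by limma). At an unadjusted p under 0.05, 1 of 13 did so with rosiglitazone, the Egr1 probe set above, beside 437 of all probe sets, and 0 of 13 with troglitazone beside 288. Set 2 has 1 array a group, assumed to vary like the others.

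Lists of related genes, 1 probe set a gene, were read beside the members. Of 18 tested other immediate early transcription factors, 1 fell with pioglitazone and 0 were called with the other drugs (median log2 changes -0.16, 0.10 and 0.05 with pioglitazone, rosiglitazone and troglitazone). It was Cebpd, a factor of early adipogenesis, with a signal of 665.7 ± 53.3 with vehicle (SD, n = 3) and 101.1 ± 106 with pioglitazone (SD, n = 2), and a log2 change on floored values of -2.48 ± 0.45 (limma, adjusted p = 0.0138). The call ended without any 1 vehicle array or pioglitazone replicate 1 (limma, adjusted p = 0.0601 to 0.0948). Of 23 other immediate early genes that are not transcription factors, Gadd45g rose with pioglitazone, by 1.55 ± 0.29 (log2; limma, adjusted p = 0.0183). In the mean of the drugs it rose by 1.23 ± 0.21 (limma, adjusted p = 0.00483), a call that ended without vehicle replicate 2 (adjusted p = 0.0702). Gadd45a rose with troglitazone, by 0.90 ± 0.20 (limma, adjusted p = 0.0366); both encode growth arrest proteins. The Gadd45g call with pioglitazone ended without any 1 vehicle or pioglitazone array, rosiglitazone replicate 4 or troglitazone replicate 4 (limma, adjusted p = 0.0517 to 0.121). That of Gadd45a ended without vehicle replicate 2 or 4 or any 1 rosiglitazone or troglitazone array (limma, adjusted p = 0.0556 to 0.247).

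Of 28 tested genes of the MAP kinase cascade and its target factors, Mapk6, which encodes the atypical kinase ERK3, fell with rosiglitazone (-0.92 ± 0.20; limma, adjusted p = 0.0350) and troglitazone (-1.01 ± 0.20; adjusted p = 0.0185). Its signal was 3046 ± 355 with vehicle, 1717 ± 807 with rosiglitazone and 1523 ± 235 with troglitazone (SD, n = 3 each). With pioglitazone the change was -0.69 ± 0.23, which did not pass (limma, adjusted p = 0.259). Both calls ended without any 1 vehicle array or troglitazone replicate 1 or 4, and the rosiglitazone call also without rosiglitazone replicate 1 or 2 (limma, adjusted p = 0.0510 to 0.206). In the mean of the drugs Mapk6 fell by 0.87 ± 0.17 (limma, adjusted p = 0.0105), a call that ended without vehicle replicate 1 or 2. None of 8 MAP kinase phosphatases and Sprouty proteins, which damp the cascade, was called in the 3 drug comparisons, and their medians were 0.30, 0.33 and 0.25 with pioglitazone, rosiglitazone and troglitazone.

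No other RGS gene (of 13 tested) and no heterotrimeric G protein subunit (of 21) was called with any drug. The median change of the RGS genes was -0.07, -0.003 and -0.02 with pioglitazone, rosiglitazone and troglitazone, and that of the subunits -0.09, -0.07 and -0.03. Of 11 MYC partners and antagonists, Mxd4, a MAX-binding repressor, fell with troglitazone (-0.73 ± 0.16; limma, adjusted p = 0.0384) and in the mean of the drugs (-0.59 ± 0.14; adjusted p = 0.0339). Its troglitazone call ended without 9 of the 11 arrays in turn, all but pioglitazone replicate 1 and troglitazone replicate 1 (limma, adjusted p = 0.0512 to 0.250), and the call in the mean also ended without 9, all but troglitazone replicates 1 and 2. Of 20 MYC targets, Ldha, lactate dehydrogenase A, rose with rosiglitazone (0.65 ± 0.13; limma, adjusted p = 0.0203) and troglitazone (0.72 ± 0.13; adjusted p = 0.00903). The first call ended without any 1 vehicle array or rosiglitazone replicate 1 or 4 and the second without vehicle replicate 1 or 4 or troglitazone replicate 2 or 4 (limma, adjusted p = 0.0688 to 0.155). In the mean of the drugs Ldha rose by 0.63 ± 0.11 (limma, adjusted p = 0.00483), a call that ended without vehicle replicate 1 or 4. Of 13 AP-1 targets, Hmox1, haem oxygenase 1, rose in the mean of the drugs by 0.90 ± 0.22 (limma, adjusted p = 0.0496), a call that ended without any 1 array other than troglitazone replicate 2 (adjusted p = 0.0614 to 0.380).

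**Figure D5:**
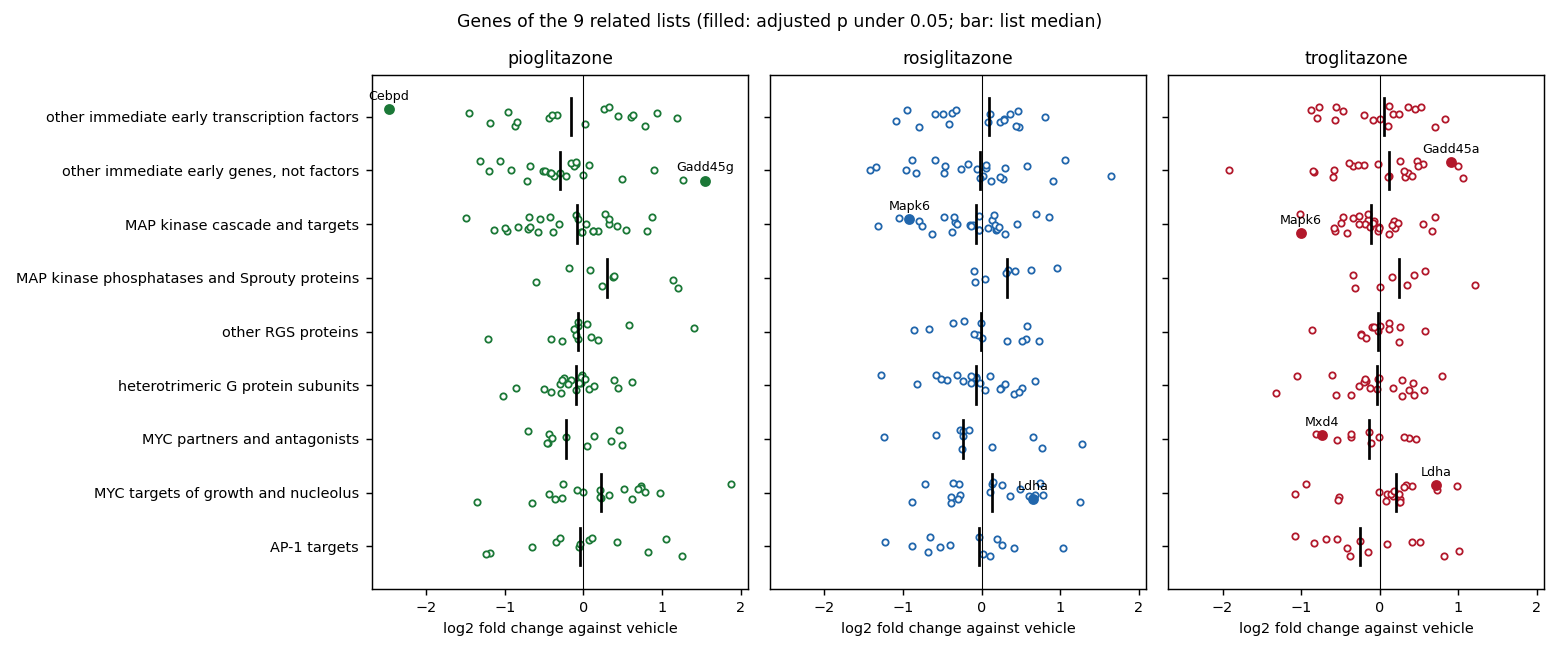
Log2 change against vehicle (x axis) of each tested gene of 9 related lists (y axis) with pioglitazone, rosiglitazone and troglitazone; filled points have an adjusted p under 0.05 by limma, and bars are list medians. The filled and named points are Cebpd and Gadd45g with pioglitazone, Mapk6 and Ldha with rosiglitazone, and Gadd45a, Mapk6, Mxd4 and Ldha with troglitazone.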

How the data were processed

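Signal intensities of 12488 probe sets on 11 arrays were used as deposited; that the authors had scaled them was read from the equal trimmed means, and the array software is not given in the sources used here. A floor of 73.7, the 25th percentile over all deposited values, replaced lower values before conversion to log2; it understates changes of dim probe sets. Leaving out 66 controls, the 11739 probe sets that exceeded the floor on at least 2 arrays were tested, and 20.99% of their values lay at it. By the annotation table, 10833 probe sets have 1 gene symbol, 396 have several and 1193 have none; 10817 of those with 1 matched a GRCm38.p6 gene identifier. A member's probe sets were kept apart; in lists each gene is represented by its brightest tested probe set on average.

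limma 3.58.1 in R 4.3.3 fitted group and set terms to all 11 arrays (6 residual degrees of freedom), with an intensity trend, two-sided, and Benjamini-Hochberg adjustment within each contrast. Separate means for each combination of group and set (4 residual degrees of freedom) gave the effects by set. The code was tested on simulated data: a 4-fold change was recovered for 44% of probe sets with pioglitazone, 50% with rosiglitazone and 56% with troglitazone, and a 2-fold change for 6%, 13% and 14%, so most changes of that size would be missed. These shares refer to the probe sets that were given a change, all drawn from those brighter than the median of the tested probe sets. The shares are not split further by brightness. Recovery for dimmer probe sets, among them those mostly at the floor such as both of Fos and the second of Egr1, was not tested. Precision is limited by the number of arrays.

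The named genes are the 10 members, up to 4 called genes of each list per contrast, and the 3 genes most like a called member; of the marker and related lists, only genes on which a result turned are given. The members and lists were chosen with earlier results of these data known. The alternatives changed the scaling (median centring or quantile normalisation), the floor (10th or 50th percentile, or an added constant), the filter (none), the set term (dropped, or replaced by a replicate block), the trend (none), the arrays (set 1, or just the groups compared) and the covariates (the actin ratio), or consisted of leaving out each array in turn or rosiglitazone replicate 2 and pioglitazone replicate 2 together.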

Additional observations from a re-analysis of the deposited data

How the results depend on the processing

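Among the 13 member probe sets, the count called with pioglitazone was 0 in place of 1 under quantile normalisation, median centring, a floor at the 50th percentile, without the filter, without the set term, in set 1 alone, without the intensity trend and in a fit of only the groups compared. It was 0 to 1 on leaving out an array. The count in the mean of the 3 drugs was 0 in place of 1 with no filter, set 1 alone and no intensity trend, and 0 to 1 on leaving out an array. With troglitazone it was 0 to 1 on leaving out an array. The cause was not tested. Over all alternatives Rgs2 stayed below vehicle, with log2 changes of -3.38 to -1.20 with pioglitazone, -1.48 to -0.89 with rosiglitazone and -1.70 to -1.23 with troglitazone. Its call held in 6 of 24 alternatives with pioglitazone and in 14 of 24 for the mean of the drugs; with troglitazone it gained a call in 2 of 24 and with rosiglitazone in 0. The calls of related genes ended in 8 of 24 alternatives for Cebpd and 14 for Gadd45g with pioglitazone, 14 for Mapk6 and 13 for Ldha with rosiglitazone, and 14 for Gadd45a, 12 for Mapk6, 17 for Mxd4 and 10 for Ldha with troglitazone. In the mean of the drugs they ended in 4 for Gadd45g, 6 for Mapk6, 15 for Mxd4, 6 for Ldha and 20 for Hmox1. Of 1981 alternative values for the 91 member changes, including those between sets, 28 lost a call, 2 gained one, 0 changed sign with a call and 107 changed sign with none.

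Counts over all probe sets ran from 0 to 141 with pioglitazone (106 in the fit reported), 6 to 177 with rosiglitazone (159), 19 to 165 with troglitazone (156), 30 to 269 in the mean of the drugs (251) and 0 to 25 between troglitazone and pioglitazone (4), and 0 to 21 for the rosiglitazone difference between sets (0). The share of higher calls with pioglitazone was 69.8%, 49.4% under quantile normalisation and 87.2% under median centring. With troglitazone these were 58.3%, 51.1% and 70.1%, and in the mean of the drugs 59.8%, 50.7% and 70.6%. Arrays with the same replicate number in different groups correlated by -0.0989 to 0.362 in their deviations from group means. The 3 of 11 that correlated best with their own number were the replicate 4 arrays, which make up set 2. In set 1 the range was -0.0989 to 0.0949 for the same number and -0.0704 to 0.106 for different numbers. Differences between sets remain in these deviations, and those of the 2 pioglitazone arrays mirror each other. The comparison therefore cannot exclude pairing by number. The number was not taken to pair samples. With the replicate number as a block, 1 member probe set was called with pioglitazone, 1 in the mean of the drugs and 0 in the other comparisons of groups, and the calls over all probe sets were 114, 162 and 144 with pioglitazone, rosiglitazone and troglitazone. The signal over background limits Fos and the second Egr1 probe set, which lay at the floor on most or all vehicle arrays.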
